A study of Mus musculus with 3 samples.

Results

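The barcodes described here carried RNA of Cr2, the gene of complement receptor 2, but hardly any Malat1, a long noncoding RNA that stays in the nucleus. They were taken from all 3 libraries by 4 conditions. A barcode needed at least 200 genes, at most 10% mitochondrial UMIs (unique molecular identifiers, 1 for each captured RNA molecule) and 0 counts of 13 genes of other cells (Cd79a, Cd79b and Ptprc of B cells and leukocytes, Trac and Cd3d of T cells, Cldn5, Egfl7, Ly6c1 and Lyve1 of vessels, the hemoglobin genes Hba-a2 and Hba-a1, Krt18 of epithelium and S100b of glia). These limits left 2243 of 5486 barcodes. Of these, 63 had at least 1 Cr2 UMI and under 1% of their UMIs from Malat1, and these 63 are called members below. The members were chosen by their measured Cr2 and Malat1 counts, so the values of these genes are a description and carry no test.

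The libraries came from C57BL/6 mice carrying a Cxcl13-Cre/tdTomato transgene, which drives Cre and the red protein tdTomato from the Cxcl13 promoter. Lymph node stromal cells were sorted as PDPN+ CD31- CD45- TdTomato+ and sequenced with the 10x Genomics 3' kit, from lymph nodes pooled over several mice. The sort selected stroma that expressed the transgene, but the filter on genes of other cells still cut 4513 barcodes to 2243. Mice of the 2-IC libraries (replicates 1 and 2) had received 2 antigen immune complexes (IC), 7 days and 24 h before analysis, and mice of the 1-IC library 1 IC 24 h before, with antibody to the antigen given before the antigen itself. The 2-IC libraries differ in a tag of their titles (Biotin24h for replicate 1, Biotin7d for replicate 2) that the labels do not explain, so they may not be plain replicates. Unimmunized mice were not analysed here, and a single 1-IC library allows no test between the IC schedules.

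Follicular dendritic cells (FDCs) are stromal cells of the B cell follicle that hold intact antigen on their surface as immune complexes. They bind these complexes through complement receptors such as CR2, and they attract B cells with the chemokine CXCL13. Activated FDCs also express Fc receptors, the low-affinity IgG receptor FCGR2B and the IgE receptor CD23 (Fcer2a), whose part in holding antigen is less clear. B cells also carry CR2, CD23 and FCGR2B, so these genes alone do not tell the cell types apart. Reticular fibroblasts of the same nodes build the collagen scaffold and make chemokines, among them CCL19 and CCL21 in the T cell zone and CXCL12.

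The members numbered 35 and 10 in 2-IC replicates 1 and 2, and 18 in the library with 1 IC. Of all Cr2-positive barcodes they made up 24.1% of 145 in 2-IC replicate 1 (exact binomial 95% interval 17.4 to 31.9%), 28.6% of 35 in 2-IC replicate 2 (14.6 to 46.3%) and 36.0% of 50 with 1 IC (22.9 to 50.8%). These intervals, which like all others here cover counting error only, overlapped. Among Cr2-negative barcodes, Malat1 was under 1% of UMIs in 18.5% (16.5 to 20.7%), 10.1% (7.18 to 13.7%) and 11.96% (8.37 to 16.4%) in the same order. Cell barcode sequences were shared by 76 barcodes of the 2-IC libraries and by 2 of 2-IC replicate 1 and the 1-IC library, and no member was among them.

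Most members lay far below the Malat1 limit. Of the 63, 21 had no Malat1 UMI and 53 were under 0.1%, including all 10 members of 2-IC replicate 2 and all 18 with 1 IC. The remaining 10 members were all from 2-IC replicate 1, 3 of them between 0.1 and 0.5% and 7 between 0.5 and 1%. The member nearest to the limit had 0.993% Malat1 and the nearest Cr2-positive barcode above it 1.02%. Median Malat1 was 0.0507, 0.0560 and 0% of UMIs in members and 5.34, 11.1 and 12.1% in Cr2-positive barcodes with at least 1% (ample Malat1) in the same library order. Cr2 itself was at a median of 5 UMIs in members (lowest 1, highest 44), and 14 members had a single Cr2 UMI.

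**Figure D1:**
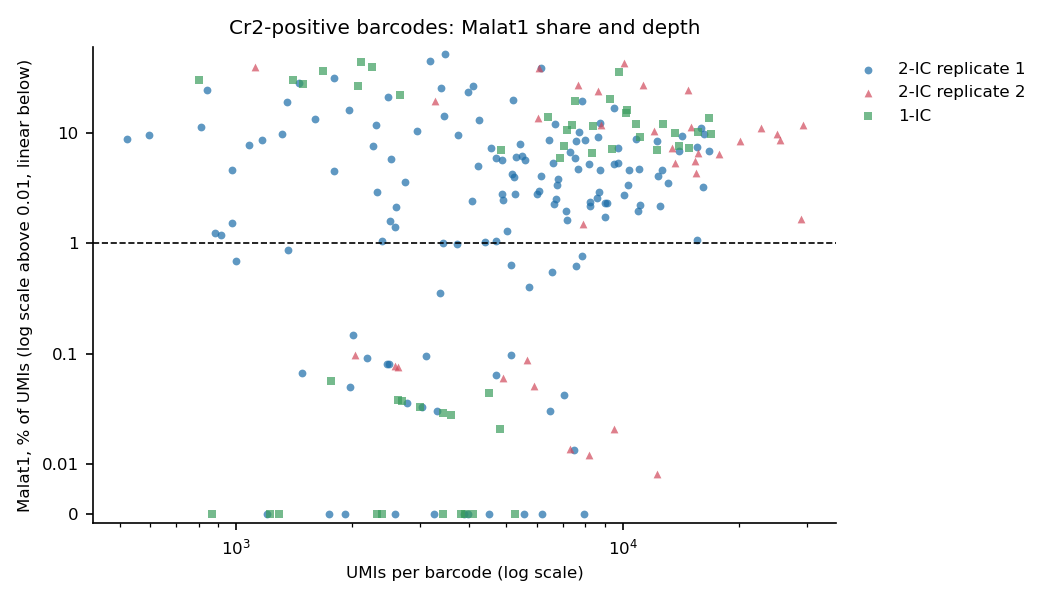
Malat1 as a percentage of UMIs (vertical axis, log scale above 0.01 and linear below) against UMIs per barcode (horizontal axis, log scale) for every Cr2-positive barcode that passed the filters, with colours and symbols for the 3 libraries and a dashed line at the 1% limit. The 63 members lie below the line, 53 of them under 0.1%, and the 10 between 0.1 and 1% are all from 2-IC replicate 1.

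Members held fewer UMIs than other Cr2-positive barcodes in each library. Their median was 3368, 5774 and 3207 UMIs in the same library order, against 5791.5, 13706 and 8370.5 in Cr2-positive barcodes with ample Malat1. Cr2-negative barcodes with low Malat1 had medians of 4108.5, 1421 and 1337 UMIs, above the members in the first library and below them in 2-IC replicate 2 and the 1-IC library. Mitochondrial UMIs were at a median of 2.09, 2.59 and 1.48% in members, 2.44, 3.41 and 1.19% in ample-Malat1 Cr2-positive barcodes and 2.81, 0.0641 and 0.170% in low-Malat1 Cr2-negative barcodes. Mitochondrial RNA was thus near absent from the Cr2-negative low-Malat1 barcodes of the latter 2 libraries, but not from the members. UMIs of ribosomal protein genes were 15.6, 13.8 and 13.3% in members and 11.3, 4.26 and 9.93% in ample-Malat1 Cr2-positive barcodes.

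For the comparisons, counts were summed over the barcodes with at least 1000 UMIs in each library and class, with Cr2 and Malat1 left out, which kept 62 of the 63 members (35, 10 and 17). Levels are given as CPM of such a sum (each count scaled to the sum's total), in the order 2-IC replicate 1, 2-IC replicate 2, 1-IC. The member sums held 140253, 60816 and 54053 UMIs, so 1 count was worth most in the 1-IC library. Classes were compared with edgeR's quasi-likelihood test with the library as a block and Benjamini-Hochberg adjustment over 5123 genes, and again with each barcode thinned to 1000 UMIs (equal depth, 604 genes). The block takes out differences in level between libraries. The p-values thus rest on how unevenly the classes differed from library to library. The labels do not describe the 3 libraries further, and both IC schedules entered 1 fit.

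Against Cr2-negative barcodes also under 1% Malat1, the members were rich in FDC genes and poor in reticular fibroblast genes. Among all genes tested, 271 were higher (5.29%) and 271 lower (5.29%) in members, with a median log2 fold change of -0.17. Of 19 FDC marker genes tested, 10 were higher and 2 lower, with a median of 1.07. At equal depth 20.0% of 604 genes were called, and 58 of 604 genes were higher (9.60%) and 63 lower (10.4%), with 8 higher and 1 lower of the 13 FDC markers that could be tested. Of the 542 genes called on full counts, 151 were tested at equal depth and 103 were called there too, all 103 in the same direction.

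Both Fc receptor genes were far higher in members. Fcer2a was at 299, 625 and 574 CPM in members and at 7.48, 17.9 and 14.6 CPM in low-Malat1 Cr2-negative barcodes (log2 fold change 5.70 ± 0.55 (SE), adjusted p = 8.42e-07, edgeR, n = 3 libraries). Every member sum lay above every Cr2-negative sum. Fcgr2b was at 335, 559 and 444 CPM against 14.1, 0 and 72.8 CPM, again without overlap (log2 fold change 4.33 ± 0.48 (SE), adjusted p = 2.77e-06, edgeR). With each barcode thinned to 1000 UMIs, Fcgr2b was detected in 35.5% (22 of 62, interval 23.7 to 48.7%) of members and in 1.78% (5 of 281, interval 0.58 to 4.1%) of low-Malat1 Cr2-negative barcodes. Fcer2a was detected in 22.6% (14 of 62, interval 12.9 to 35%) and 1.42% (4 of 281, interval 0.389 to 3.6%).

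Cxcl13, the follicular chemokine, was among the most abundant transcripts of the members, at 38038, 35287 and 61051 CPM, against 7364, 9787 and 23362 CPM in Cr2-negative barcodes (log2 fold change 1.72 ± 0.29 (SE), adjusted p = 0.0003, edgeR). Clu, which encodes the secreted chaperone clusterin, was at 21846, 22576 and 27306 CPM against 5715, 4036 and 10268 CPM (log2 fold change 1.84 ± 0.27 (SE), adjusted p = 9.4e-05, edgeR). Mfge8, a secreted bridge for the uptake of apoptotic cells, was at 18595, 19814 and 14338 CPM against 4330.4, 1982 and 3510.2 CPM (log2 fold change 2.40 ± 0.29 (SE), adjusted p = 7.87e-06, edgeR). For each of these genes all 3 member sums exceeded all 3 Cr2-negative sums. Every member had at least 1 UMI of Clu and of Mfge8, and 62 of 63 had Cxcl13, at a median of 4.62% of a member's UMIs (lowest 0, highest 13.4%).

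Madcam1, an adhesion molecule for lymphocytes, was at 378, 674 and 777 CPM in members and 9.97, 35.7 and 29.1 CPM in Cr2-negative barcodes (log2 fold change 5.33 ± 0.56 (SE), adjusted p = 1.34e-06, edgeR). Coch, the gene of the secreted protein cochlin, was at 242, 921 and 666 against 24.9, 0 and 14.6 CPM (log2 fold change 4.78 ± 0.67 (SE), adjusted p = 4.7e-05, edgeR). Prnp, the prion protein gene, rose from 149 ± 7.52 to 1572 ± 372 CPM (mean ± SD, n = 3 libraries, log2 fold change 3.30, adjusted p = 1.26e-06, edgeR). The groups did not overlap for these 3 genes. Cd200, which encodes a ligand that restrains myeloid cells, was higher by 3.49 on the log2 scale and Vcam1, an integrin ligand, by 0.99 (adjusted p = 0.000296 and 0.0382, edgeR). The FDC-listed genes that fell were the complement component C3, at 2324, 1513 and 148 against 10438, 6072 and 2491 CPM (adjusted p = 0.000599, edgeR), and Tnfsf13b, the gene of the B cell survival factor BAFF (log2 fold change -1.48, adjusted p = 0.0428, edgeR). The calls of Tnfsf13b and Vcam1 were fragile, made in 5 and 10 of 17 alternative settings. For Icam1, Bst1, C4b, Sox9, Ltbr, Tnfrsf1a and Enpp2 no difference was called in the fit described, with log2 fold changes from -1.06 to 1.07. C4b was called in 4, Bst1 in 3 and Sox9 in 1 of 17 alternative settings.

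**Figure D2:**
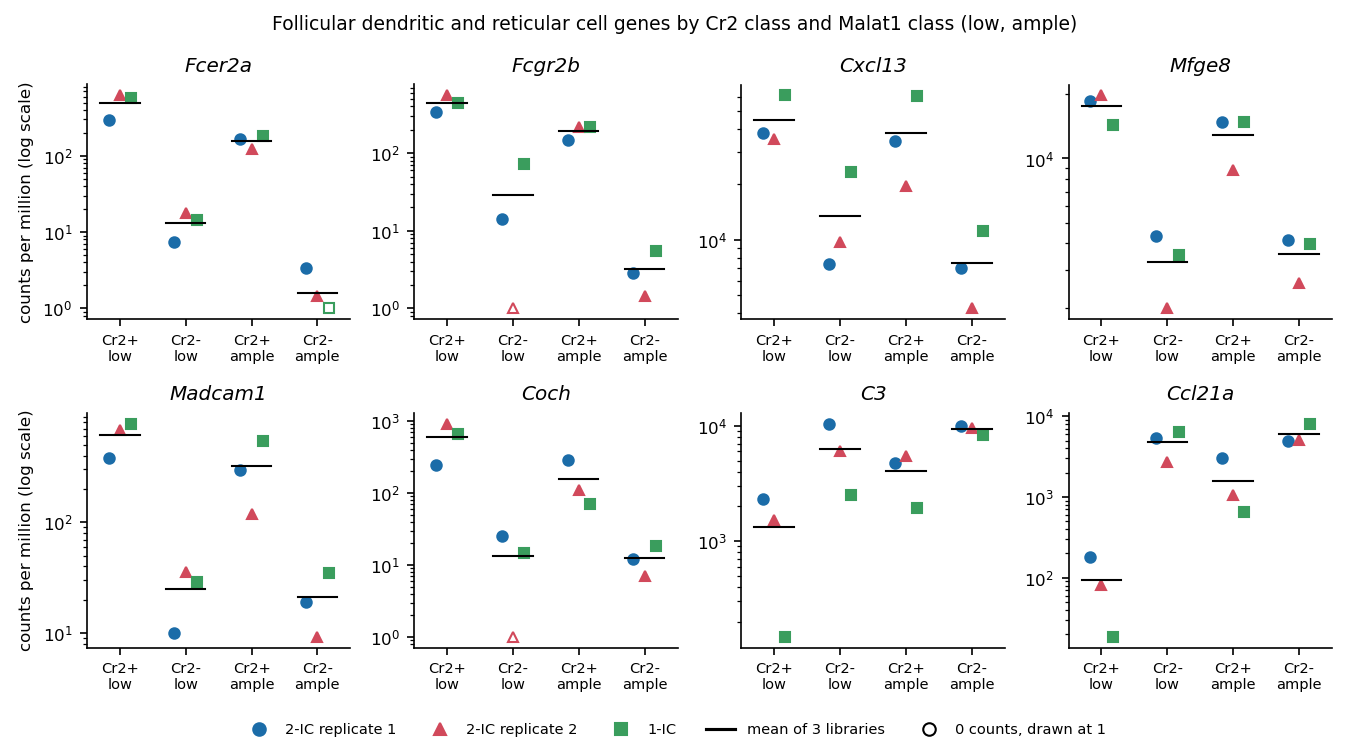
CPM (log scale) of 8 genes in the sums of the 4 classes, with 1 symbol per library, a line at the mean of the 3 libraries, and open symbols, drawn at 1, for sums with 0 counts. Fcer2a, Fcgr2b, Cxcl13, Mfge8, Madcam1 and Coch are higher in every member sum (Cr2+ low) than in every low-Malat1 Cr2-negative sum, and Ccl21a is lower.

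Reticular fibroblast genes were scarce in members. Of 22 tested, 15 were lower and 1 higher than in low-Malat1 Cr2-negative barcodes, against 5.29% of all genes in each direction. The listed genes had a median log2 fold change of -2.52. The lower calls were 8 of 22 without the library block and 6 of 23 without the contaminant filter. Their summed level was 11179.8, 3552 and 2183 CPM in members against 39803, 24145 and 20246 CPM. Ccl21a, a chemokine of the T cell zone, was at 178, 82.2 and 18.5 against 5398, 2732 and 6438 CPM (log2 fold change -5.70 ± 0.56 (SE), adjusted p = 8.42e-07, edgeR), and Ccl19, which shares its receptor, at 335, 181 and 222 against 2294, 2715 and 2519.8 CPM (log2 fold change -3.41). Both have close copies in the genome, to which reads may have been split. Dcn, the matrix proteoglycan decorin, fell by 2.60 and Cxcl12, a chemokine of reticular cells, by 2.60 on the log2 scale (adjusted p = 0.000883 and 0.00369, edgeR). The levels in members were uneven between libraries, with Cxcl12 at 3023, 214 and 167 CPM. The listed gene that rose was Postn, the matrix protein periostin (791, 526 and 759 against 356, 143 and 102 CPM, adjusted p = 0.00876, edgeR).

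Besides Madcam1, Coch and Fcgr2b, the largest rises called in both depths and with 1 direction in every library were those of A230065H16Rik (log2 fold change 6.19), Gm42031 (5.13), Ubd (5.11), Gm43305 (4.78), Serpina1e (4.35), Arsb (4.19) and Fabp5 (3.69). Ubd encodes the ubiquitin-like modifier FAT10, Arsb a lysosomal sulfatase and Fabp5 a fatty acid binding protein. Serpina1e belongs to a family of near-identical genes and its counts are uncertain. The largest falls after Ccl21a were those of Ccl19-ps1 (-3.66), the inflammatory chemokine Ccl2 (-3.59), the lipid carrier Apoe (-3.48), Ifitm1 (-3.45), Ccl19, Igfbp4 (-3.16), Gas6 (-3.11), Cp (-3.10) and Vtn (-3.01). Gas6, Cp and Vtn had counts in members of 2-IC replicate 1 only.

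Low Malat1 did not make the Cr2-negative barcodes a uniform class. In 2-IC replicate 1 only 38 of their 256 barcodes were under 0.1% Malat1, against 18 of 36 in 2-IC replicate 2 and 31 of 33 with 1 IC. Their sum in 2-IC replicate 2 held 16109 CPM of Igkc, the immunoglobulin kappa constant gene, against 181 CPM in members, and their sum in the 1-IC library 10458 CPM of MHC class II genes against 1832 CPM. Without barcodes carrying a UMI of 10 B cell or myeloid genes, which do not include Igkc or class II genes, 10 FDC markers were higher and 2 lower. Over all genes 223 were then higher and 309 lower. Igkc itself had a UMI in 215 of 325 low-Malat1 Cr2-negative barcodes and 36 of 63 members, and leaving those out was not tested. In ample-Malat1 barcodes Igkc had a UMI in 68.9% of Cr2-positive and 67.3% of Cr2-negative ones. The 10 genes gave a UMI in 26 of 63 members (41.3%), which that setting left out. Their share was similar elsewhere, at 47.7% of low-Malat1 Cr2-negative, 40.1% of ample-Malat1 Cr2-positive and 38.8% of ample-Malat1 Cr2-negative barcodes, at unequal depth. Pairing each member with a Cr2-negative barcode of similar UMI count called 277 genes. It balanced depth only in 2-IC replicate 1, since median UMIs stayed at 5774 against 2889 in 2-IC replicate 2 and 3423 against 1641 with 1 IC.

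The second comparison kept to Cr2-positive barcodes and set the members against those with ample Malat1. In it, 219 of 5123 genes were higher (4.27%) and 388 lower (7.57%) in members, with a median log2 fold change of -0.20. At equal depth 26 of 604 genes were higher (4.30%) and 88 lower (14.6%). Without TMM factors that split became 74 higher and 67 lower, and the median of all genes at equal depth moved by 0.35 on the log2 scale. The full-count result leaned on 1 library. Without 2-IC replicate 2, which held 10 members and 25 barcodes with ample Malat1, 53 genes were higher and 60 lower. In a fit without the library block 32 were higher and 103 lower, with 1 FDC marker higher and 0 of 70 respiratory chain genes called.

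The receptor genes were also higher in members than in these barcodes. Fcer2a was at 299, 625 and 574 CPM in members against 168, 124 and 182 CPM (log2 fold change 1.64 ± 0.33 (SE), adjusted p = 0.00419, edgeR), and Fcgr2b at 335, 559 and 444 against 146, 220.0 and 216 CPM (log2 fold change 1.27 ± 0.32 (SE), adjusted p = 0.0172, edgeR). Neither gene's groups overlapped. At equal depth the fold of Fcgr2b was 0.81 and was not called (adjusted p = 0.288, edgeR), and Fcer2a was too low to be tested. Without 2-IC replicate 1 the adjusted p of Fcgr2b was 0.0730 (edgeR). Fcer2a was detected at equal depth in 9.49% (15 of 158, interval 5.41 to 15.2%) of ample-Malat1 Cr2-positive barcodes. The limit of 1 Cr2 UMI was set at unequal depth, and the 2 classes also differed in Cr2. Thinned to 1000 UMIs, Cr2 was detected in 72.6% of members (45 of 62) and 44.9% of ample-Malat1 barcodes (71 of 158). With Cr2 classes set on thinned counts, 6 genes were higher and 40 lower at equal depth. Whether the receptor differences went with the Cr2 difference was not tested.

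Of the 19 FDC markers tested, 5 were higher and 2 lower than in ample-Malat1 barcodes, where 4.27% of all genes were higher and 7.57% lower. The median log2 fold change of the markers was -0.16. Besides the receptors, the higher markers were Coch (1.89, adjusted p = 0.0148), Madcam1 (1.13, 0.0424) and Prnp (1.05, 0.0229, edgeR). Of 17 alternative settings, Fcer2a was called in 16, Coch in 13, Prnp in 12, Fcgr2b in 11 and Madcam1 in 10. Coch was higher in 2 of 3 libraries, at 242, 921 and 666 CPM in members against 289.9, 112 and 69.3 CPM. C3 (-1.73) and Enpp2, which encodes the enzyme autotaxin (-1.04), were lower. At equal depth the balance turned, with 1 higher and 3 lower of 13 FDC markers, against 4.30% of all genes higher and 14.6% lower. Without 2-IC replicate 2, 2 markers were higher and 0 lower on full counts. The abundant markers gave no call, with log2 fold changes of 0.40 for Cxcl13, 0.56 for Clu and 0.59 for Mfge8 (adjusted p = 0.355, 0.166 and 0.159, edgeR).

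Tmsb4x, the gene of the actin-binding peptide thymosin beta-4, had even levels across the members' libraries. It stood at 23415, 27706 and 24458 CPM in members and 7884, 3141 and 6569 CPM in ample-Malat1 Cr2-positive barcodes (log2 fold change 2.26 ± 0.39 (SE), adjusted p = 0.00147, edgeR), and remained called at equal depth (2.04, adjusted p = 0.00582, edgeR). Low-Malat1 Cr2-negative barcodes had 3784, 6358 and 16692 CPM, also below the members in every library (log2 fold change 1.52, adjusted p = 0.0137, edgeR). The difference from Cr2-negative barcodes was called in 14 of 17 alternative settings. It was not called without the contaminant filter (0.45, adjusted p = 0.482), without the library block or without 2-IC replicate 2 (1.25, adjusted p = 0.121, edgeR). All 63 members had Tmsb4x, from 0.0974 to 6.80% of a member's UMIs. Of 22 actin cytoskeleton genes tested, 4 were higher than in ample-Malat1 barcodes and 0 lower (median log2 fold change 0.70, with 4.27% of all genes higher), namely Tmsb4x, Actb (1.23), Pfn1 (1.03) and Arpc3 (1.20). At equal depth 2 of 16 were higher, and without the library block 1 of 22.

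Cxcl9, a chemokine induced by interferon-gamma, was carried by few members. It had a UMI in 14 of 63, 5 of 35 and 2 of 10 in 2-IC replicates 1 and 2, and 7 of 18 with 1 IC, and 1 member of 2-IC replicate 2 held 53 UMIs, most of that library's count. Its level was 406, 1003 and 555 CPM in members, 47.8, 12.8 and 381 CPM in ample-Malat1 Cr2-positive barcodes and 184, 589 and 452 CPM in low-Malat1 Cr2-negative barcodes. The first difference was called (log2 fold change 2.64 ± 0.58 (SE), adjusted p = 0.00761, edgeR), but not at equal depth (adjusted p = 0.0695) nor without 2-IC replicate 1 (adjusted p = 0.0711, edgeR). Its log2 fold change was 1.77 without 2-IC replicate 2 and 4.17 without the 1-IC library. The difference from Cr2-negative barcodes was not called (log2 fold change 0.74, adjusted p = 0.443, edgeR). Among 11 interferon-induced genes tested, only Cxcl9 and Ubd were called higher than in ample-Malat1 barcodes and 0 lower, with a median of 0.04. Of all genes 4.27% were higher and 7.57% lower in this comparison. Ubd was at 349, 1102 and 499.5 against 157, 63.8 and 95.3 CPM (log2 fold change 2.42, adjusted p = 0.001, edgeR).

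Among genes called at both depths, the steepest rises of this comparison were in sparsely annotated transcripts. Gm42031 was at 606, 2219.8 and 2035 CPM in members and 66.3, 115 and 56.3 CPM with ample Malat1 (log2 fold change 4.25 ± 0.39 (SE), adjusted p = 2.03e-06, edgeR), and Gm43305 at 1105, 3437 and 5365 against 111, 229.6 and 312 CPM (log2 fold change 3.89 ± 0.41 (SE), adjusted p = 9.88e-06, edgeR). GENCODE M21 (GRCm38) places Gm42031, a lincRNA, on chromosome 8 from 85125872 to 85132289 (minus strand). Gm43305, a processed transcript, lies on chromosome 14 from 54292443 to 54297456 (minus strand). A230065H16Rik, annotated as protein-coding on chromosome 12 from 111406809 to 111412090, was at 1027, 954 and 2331 against 191, 51.0 and 537 CPM (log2 fold change 2.87, adjusted p = 0.000789, edgeR). At equal depth A230065H16Rik was detected in 71% (44 of 62, interval 58.1 to 81.8%) of members, 17.1% (27 of 158, interval 11.6 to 23.9%) of ample-Malat1 and 0.712% (2 of 281, interval 0.0863 to 2.55%) of low-Malat1 Cr2-negative barcodes. Iscu (2.12), Dbi (2.11), Anxa2 (2.01), Serpinb1a (1.97) and S100a11 (1.78) followed, besides Ubd and Tmsb4x, among the genes called in both depths with 1 direction in all 3 libraries.

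The 3 nuclear RNAs other than Malat1 that could be tested were lower in members than in ample-Malat1 Cr2-positive barcodes, where 7.57% of all genes were lower. Against low-Malat1 Cr2-negative barcodes 0 of the 3 were called, where 5.29% of all genes were lower. In those barcodes the 12 listed RNAs summed to 659.8, 268 and 131 CPM, against 428, 0 and 18.5 CPM in members. Neat1, the architectural RNA of nuclear paraspeckles, was at 78.4, 0 and 0 CPM in members against 444, 1158 and 316 CPM with ample Malat1 (log2 fold change -3.94 ± 0.58 (SE), adjusted p = 0.000471, edgeR). Xist, the RNA of the inactive X chromosome, was at 292, 0 and 0 against 652, 2086 and 844 CPM (log2 fold change -3.31, adjusted p = 0.00669, edgeR). The counts of both in members came from 2-IC replicate 1 alone. Kcnq1ot1, an imprinted antisense RNA, had 0 counts in members and 261 in ample-Malat1 barcodes, so it was at least 18.6-fold lower when 3 counts over the class are allowed for a count of 0. Gm37376, at least 21.1-fold lower by the same floor, lies inside the Malat1 gene on the opposite strand (chromosome 19, 5801941 to 5802393) and so is tied to the rule. Gm20417, with 3 counts in members, was 47.2-fold lower (counting interval 16.1 to 229).

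Immediate early genes, the first to be transcribed after a stimulus, were low as well. Of 19 tested, 11 were lower and 0 higher than in ample-Malat1 barcodes, with a median log2 fold change of -1.75, and 6 were lower and 0 higher than in low-Malat1 Cr2-negative barcodes (median -1.52). Among all genes 7.57 and 5.29% were lower in these comparisons. Jun was at 2032, 132 and 111 CPM in members, 4623, 6301 and 4789 CPM with ample Malat1 and 4506, 3322 and 1733 CPM in the Cr2-negative class (log2 fold change -3.10 and -2.37, adjusted p = 0.00357 and 0.0112, edgeR). Fos was at 3415, 132 and 167 CPM in members and 4611, 4697 and 3836 CPM with ample Malat1 (log2 fold change -2.44, adjusted p = 0.019, edgeR). Members of 2-IC replicate 1 held far more of both than those of the other libraries. Without 2-IC replicate 2, 2 of the listed genes were called lower than in ample-Malat1 barcodes, and 1 lower than in Cr2-negative ones. Without the library block 1 of 19 was lower in each comparison. Without the contaminant filter 0 of 21 were lower than in Cr2-negative barcodes. The other large falls were those of Gm26802 (-4.03), Ccl21a (-3.79), the choline kinase gene Chka (-3.78), Errfi1 (-3.60), the heat shock gene Hspa1b (-3.31) and Ugcg (-3.16).

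**Figure D3:**
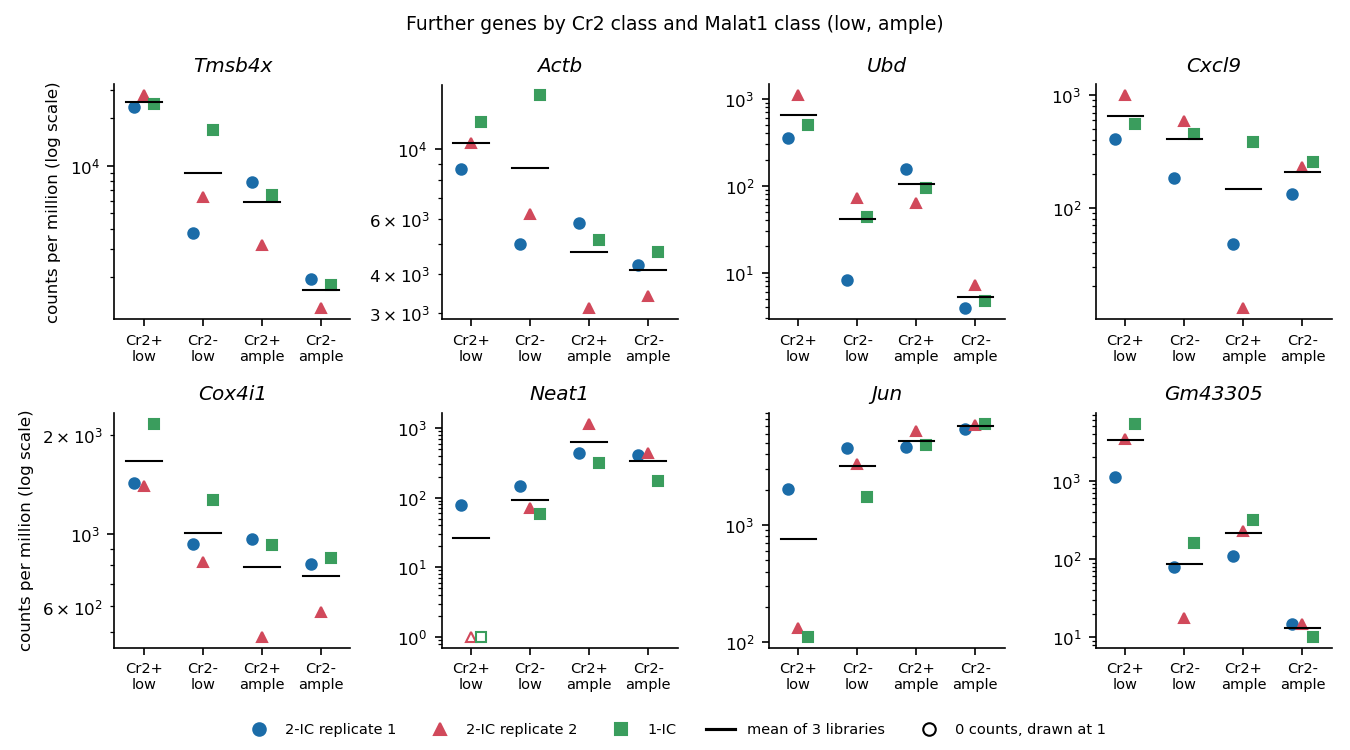
CPM (log scale) of 8 genes in the sums of the 4 classes, with 1 symbol per library, a line at the mean of 3 libraries, and open symbols, drawn at 1, for sums with 0 counts. Tmsb4x, Actb, Ubd, Cxcl9, Cox4i1 and Gm43305 are higher in every member sum (Cr2+ low) than in the ample-Malat1 Cr2-positive sum of the same library, and Neat1 and Jun are lower.

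Among genes of energy metabolism and antigen presentation, every call made by edgeR on full counts against ample-Malat1 Cr2-positive barcodes was towards higher levels in members, while DESeq2 called 7 class I genes higher and 1 lower. Of 70 nuclear-encoded respiratory chain genes tested, 23 were higher and 0 lower (median log2 fold change 0.81, with 4.27% of all genes higher), among them Cox4i1 (1426, 1398 and 2165 against 964, 485 and 927 CPM, adjusted p = 0.0111, edgeR) and Atp5e (log2 fold change 1.11). No call was made among the 13 mitochondrially encoded genes (median -0.26). At equal depth 3 of 38 respiratory chain genes were higher and 0 lower, against 4.30% of all genes higher. Without 2-IC replicate 2, 0 of 71 respiratory chain genes were called, with a median of 0.64, and without the 1-IC library 9 of 70. Against low-Malat1 Cr2-negative barcodes 2 of 70 were higher and 0 lower (median 0.31), where 5.29% of all genes were higher.

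Of 14 class I presentation genes, 5 were higher than in ample-Malat1 barcodes and 0 lower (median 0.63), where 4.27% of all genes were higher. They were B2m, the class I light chain (4392, 4489 and 4237 against 3218, 2347 and 2364 CPM, adjusted p = 0.0383, edgeR), and the immunoproteasome genes Psmb8, Psmb9, Psme1 and Psme2. The constitutive proteasome had 5 of 14 higher and 0 lower (median 0.88), among them Psmb1 (log2 fold change 1.16). These counts fell to 0 and 1 without 2-IC replicate 2. At equal depth 0 of 9 class I and 0 of 2 proteasome genes were called, and without the library block 0 of 14 in each list. Against low-Malat1 Cr2-negative barcodes neither list had a call on full counts in the edgeR fit described above, while 2 of 9 class I genes were higher at equal depth (9.60% of all genes). Other settings made up to 3 class I calls and 1 proteasome call there. Of 5 class II genes, H2-Aa (670.2, 49.3 and 185 against 58.6, 63.8 and 39.0 CPM) and H2-Eb1 (927, 230.2 and 296 against 83.3, 47.8 and 73.6 CPM) were higher (adjusted p = 0.0273 and 0.00407, edgeR), while H2-Aa in 2-IC replicate 2 was lower in members, and 0 of 4 class II genes were called at equal depth. Without the contaminant filter H2-Aa and H2-Eb1 changed sign, to log2 fold changes of -0.35 and -0.0566. Ribosomal protein genes had 1 of 76 higher and 0 lower.

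**Figure D4:**
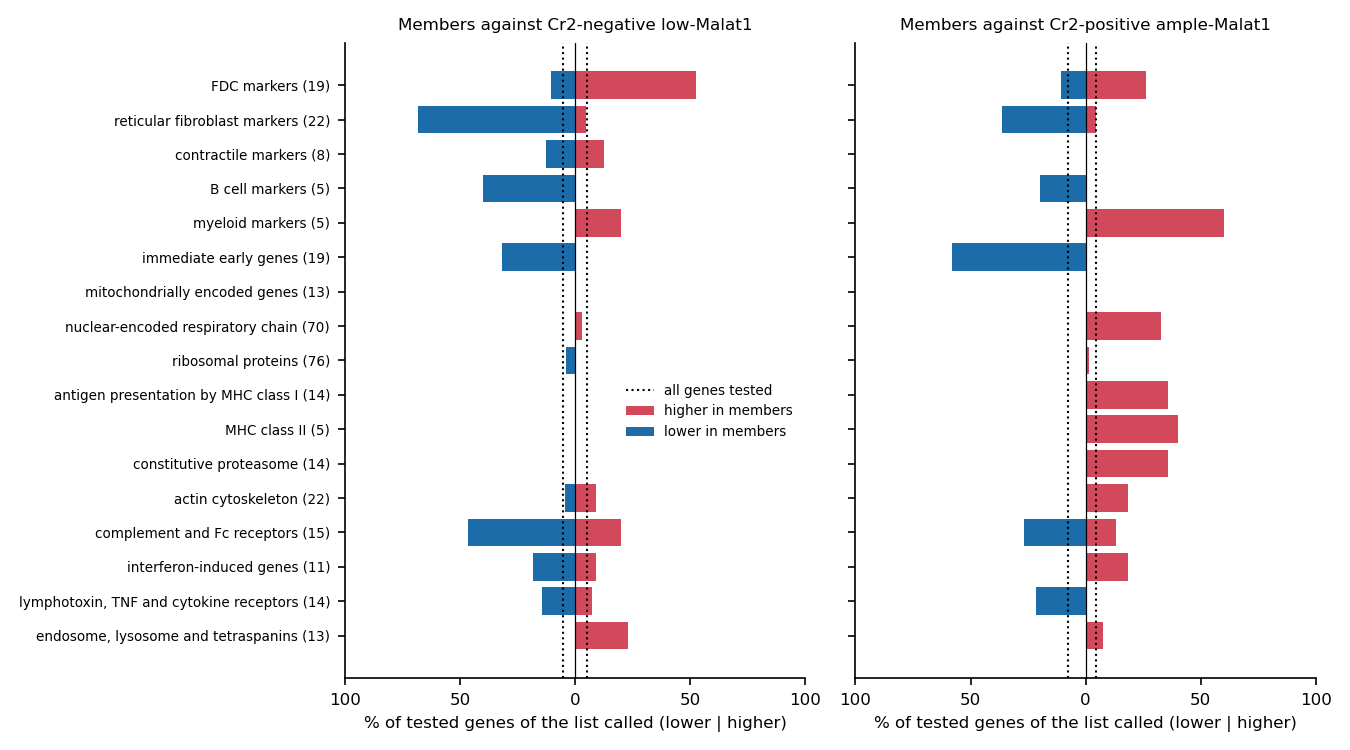
Share of the tested genes of each list (number in brackets) called higher (red, to the right) or lower (blue, to the left) in members against low-Malat1 Cr2-negative barcodes (left panel) and against ample-Malat1 Cr2-positive barcodes (right panel), with dotted lines at the shares among all genes tested. FDC markers rise and reticular fibroblast markers fall on the left, with 10 and 15 calls, and 23 respiratory chain genes rise on the right.

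Whether low Malat1 went with other differences in Cr2-positive than in Cr2-negative barcodes was tested as an interaction. edgeR called 0 of 5123 genes (0.00%), with 449 at an unadjusted p under 0.05 and a lowest adjusted p of 0.165, while DESeq2 called 2 higher and 7 lower. At equal depth edgeR called 0 of 604 genes, with 52 at an unadjusted p under 0.05, and DESeq2 1. The interaction of Ccl21a was -3.50 on the log2 scale (adjusted p = 0.165, edgeR), and that of Tmsb4x -0.20 (adjusted p = 0.944, edgeR). edgeR made calls under some alternatives, 25 without a filter on low counts, 24 without 2-IC replicate 1, 9 and 6 at Malat1 limits of 0.3 and 0.1% and 4 without barcodes with other-cell RNA.

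Markers of other cells were measured because B cells and myeloid cells also express Cr2, Fc receptors or MHC class II. Of 24 B cell genes, 17 had a count in members, summing to 969.7, 592 and 555 CPM, against 1294, 1109.8 and 654 CPM in ample-Malat1 Cr2-positive and 1896, 16519 and 452 CPM in low-Malat1 Cr2-negative barcodes. Igkc was the most abundant, at 456, 181 and 111 CPM in members, and Blk, Cd22, Cxcr5, Fcrl1, Pou2af1, Siglecg and Vpreb3 were at 0. The filter had already removed barcodes with Cd79a or Cd79b.

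Myeloid genes were somewhat higher in members than in ample-Malat1 Cr2-positive barcodes. Of 18, 14 had a count in members, and their sum was 919.8, 707 and 1388 CPM against 438, 341 and 446 CPM, with 775, 714 and 3729 CPM in low-Malat1 Cr2-negative barcodes. Aif1 was the most abundant, at 299, 395 and 463 CPM, and Adgre1, Cd163, Itgax and Siglec1 were at 0. Lyz2, the macrophage lysozyme, was at 228, 49.3 and 481 against 37.0, 60.6 and 43.3 CPM (log2 fold change 2.22, adjusted p = 0.0242, edgeR), and Tyrobp and Ctss were also called higher, 3 of 5 tested. Among all genes 4.27% were higher in this comparison. Without the library block 0 of 5 myeloid genes were called, and at equal depth 0 of 1. Without the contaminant filter the log2 fold change of Ctss was -0.34. The class II genes H2-Aa and H2-Eb1 were also called higher than in ample-Malat1 barcodes. In members the class II sum was highest in 2-IC replicate 1 (4770 CPM), while the myeloid sum was highest in the 1-IC library. A link between the myeloid and class II genes was not tested. Without barcodes carrying B cell or myeloid RNA, 1 of 4 class II genes was still called higher and 0 lower. T cell genes summed to 21.4, 16.4 and 55.5 CPM in members with 8 of 12 at 0, endothelial genes to 14.3, 0 and 18.5 CPM with 6 of 8 at 0, erythroid and platelet genes to 21.4, 16.4 and 0 CPM with 5 of 7 at 0, and plasma cell genes to 292, 279.5 and 74.0 CPM with 3 of 10 at 0.

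Without barcodes carrying a UMI of 10 B cell or myeloid genes (an alternative chosen after seeing the data), 15 of 21 reticular fibroblast genes were lower against low-Malat1 Cr2-negative barcodes and 1 higher. In that comparison 2 of the 2 myeloid genes tested were called higher (median log2 fold change 2.09). Against ample-Malat1 Cr2-positive barcodes 4 FDC markers were higher and 3 lower, Tmsb4x kept its call and 0 of the 2 myeloid genes that could still be tested were called. In that setting 11 of 68 respiratory chain genes were higher, against 23 of 70 with all barcodes. Over all genes it called 223 higher and 309 lower against low-Malat1 Cr2-negative barcodes. Against ample-Malat1 Cr2-positive barcodes it called 139 higher and 328 lower. It kept 17, 8 and 11 members in the 3 libraries, and the effect of these smaller sums on the calls was not tested.

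The members were not uniform along the Malat1 axis either. In 2-IC replicate 1, the one library with members above 0.1% Malat1, pooled Tmsb4x was 30340.5 CPM in the 25 members under 0.1%, 11687 CPM in the 3 members from 0.1 to 0.5% and 7127 CPM in the 7 members from 0.5 to 1%. The 15 Cr2-positive barcodes just above the limit, from 1 to 2%, had 11219 CPM. Jun ran the other way, at 655, 2537, 5883 and 4001 CPM, and Fcgr2b stood at 478, 90.6, 0 and 91.5 CPM. On Tmsb4x and Jun the 7 members nearest to the limit resembled the barcodes above it more than the members under 0.1%. The Fcgr2b values of the bins of 3 and 7 members rest on very few counts. Cxcl13 changed little, from 41012 to 29356 CPM across the members' bins. With the low class limited to under 0.1% Malat1, 226 genes were higher and 230 lower than in Cr2-negative barcodes, and 419 higher and 627 lower than in ample-Malat1 Cr2-positive barcodes.

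**Figure D5:**
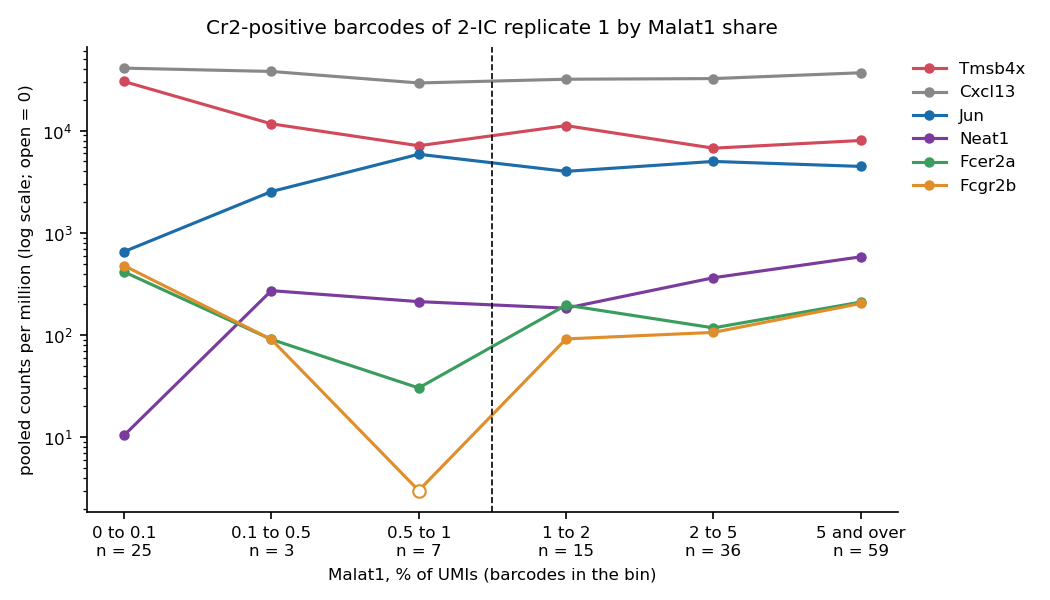
Pooled CPM (log scale) of 6 genes in Cr2-positive barcodes of 2-IC replicate 1, binned by the percentage of UMIs from Malat1 (horizontal axis, with the number of barcodes in each bin), with a dashed line at the 1% limit and an open symbol, drawn at 3, for 0 counts. Tmsb4x falls from 30340.5 CPM in the lowest bin to 7127 CPM below the limit, Jun rises from 655 to 5883 CPM, and Cxcl13 stays between 29356 and 41012 CPM.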

How the data were processed

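UMI counts per gene and barcode came from 3 10x Genomics 3' libraries of sorted lymph node stroma. The deposited counts had been made by the authors with Cell Ranger (5.0.0 per the file headers) on GRCm38, and were used as deposited, with no cell annotation and no doublet caller. Of 51912 feature rows, 102 were summed into rows of the same symbol, giving 51810 symbols. Samples were grouped by their titles.

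Counts were summed per library and class into 12 sums (barcodes with at least 1000 UMIs, Cr2 and Malat1 left out), filtered on low counts, and compared with edgeR 4.0.16 (quasi-likelihood test, TMM factors, library as a block since the 4 sums of a library share a cell suspension, Benjamini-Hochberg adjusted p under 0.05). Both main comparisons share the member sums. Equal depth means each barcode thinned to 1000 UMIs. DESeq2 1.42.0, other Malat1 and Cr2 limits, no contaminant filter and leaving out each library were tried as alternatives. Other genes were named where called in both depths with 1 direction in all 3 libraries, up to 10 a direction by fold. Intervals for shares are exact binomial (95%). The scripts were tested on simulated data. The members, lists and tests were chosen with earlier results of these data known. Gene types and positions are from GENCODE M21, matched for 99.9% of tested genes. Some items are not reported here.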

Additional observations from a re-analysis of the deposited data

Results flagged for a closer look

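Several genes differed in direction between the 2-IC libraries and the 1-IC library, and these differences were not tested, since there was 1 library with 1 IC. As log2 ratios of CPM in the order 2-IC replicate 1, 2-IC replicate 2, 1-IC, C4b in members over low-Malat1 Cr2-negative barcodes was at -1.52, -0.90 and 0.0182. Against ample-Malat1 Cr2-positive barcodes, Clu was at 0.41, 1.12 and -0.0823, Cxcl13 at 0.22, 0.84 and -0.0609, and Mfge8 at 0.40, 1.16 and -0.12. Ltbr, the lymphotoxin receptor gene, was at -0.96, -1.14 and 0.57, on few counts.

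The filter on 13 genes of other cells left out 84 and 10 Cr2-positive low-Malat1 barcodes in 2-IC replicates 1 and 2, and 5 with 1 IC, where it kept 35, 10 and 18. Of these 99 barcodes, 85 had Cd79a, 75 Cd79b and 63 Ptprc, genes of the B cell receptor and of the leukocyte antigen CD45.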

How the results depend on the processing

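All values are counts of called genes unless named otherwise, and where no cause is given it was not tested. Against low-Malat1 Cr2-negative barcodes (542 genes), 277 were called with depth matching, 335 without the contaminant filter and 249 to 453 when a library was left out, lowest without 2-IC replicate 1. At equal depth (121) 236 were called at 2000 UMIs, 53 at 500 and 93 to 152 with a library left out. Against ample-Malat1 Cr2-positive barcodes (607), 1046, 1008 and 351 were called at Malat1 limits of 0.1, 0.3 and 2%, 991 without the contaminant filter and 113 to 535 with a library left out, with 328 without the 1-IC library and 113 without 2-IC replicate 2. At equal depth (114) the counts were 46 with Cr2 classes set on thinned counts, 175 at 0.1% Malat1, 51 without a filter on low counts, 243 at 2000 UMIs, 49 at 500 and 2 to 123 with a library left out, with 73 without the 1-IC library and 2 without 2-IC replicate 2. Without the replicate block the counts were 278 and 71 against Cr2-negative and 135 and 50 against ample-Malat1 barcodes. The interaction (0) gave 9 with DESeq2, 6 and 9 at 0.1 and 0.3% Malat1, 25 without a filter on low counts, 4 without barcodes with other-cell RNA and 3 to 24 with a library left out.

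Members as a share of Cr2-positive barcodes came to 34.5% in 2-IC replicate 1 at a limit of 2%, and without the contaminant filter to 13.5% in 2-IC replicate 2 and 18.4% with 1 IC. Without that filter median UMIs in 2-IC replicate 2 were 10413.5, and ribosomal protein genes took 21.3 and 20.5% of UMIs in the 2-IC libraries. Fcer2a was detected in 46.2% of members at 2000 UMIs and 58.1% unthinned, Fcgr2b in 22.2% at 500 and 54.8% unthinned, and Tmsb4x in 100% at 2000 UMIs and unthinned. Without the contaminant filter the log2 fold changes of Ctss (-0.20), Cxcl9 (-0.83) and Ebf1 (0.25) against Cr2-negative barcodes, and of Ctss (-0.34), H2-Aa (-0.35) and H2-Eb1 (-0.0566) against ample-Malat1 barcodes, changed sign. Ighg1 did so with depth matching (0.66). Of 3215 gene values under alternatives, 2581 kept direction and call, 627 kept direction and lost the call and 7 changed direction. Of 190 gene results, 144 lost the call in at least 1 alternative, 120 without the replicate block, 99 without the contaminant filter and 92 without 2-IC replicate 2. The 0.1% limit and the setting without other-cell RNA were chosen after seeing the data. With 10 members in 2-IC replicate 2 and 54053 UMIs in the 1-IC member sum, low genes were measured coarsely.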

Other observations

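Genes called lower in members than in ample-Malat1 Cr2-positive barcodes had a higher median genomic span than all genes tested, which is a description with no test. The median genomic span of protein-coding genes was 52.5 kb for the 367 that fell, 8.71 kb for the 211 that rose and 23.5 kb for all 5015 tested. Against low-Malat1 Cr2-negative barcodes the medians were 16.8 kb for the 265 that fell and 21.5 kb for the 265 that rose. All lower calls came to 388 genes, and to 60 without 2-IC replicate 2. Of 72 genes annotated as long noncoding or with a type still to be established, 17 were lower than in ample-Malat1 barcodes (23.6%, against 7.57% of all genes). In the same comparison 7 of them were higher (9.72%, against 4.27% of all genes). Against low-Malat1 Cr2-negative barcodes 2 were lower (2.78%) and 5 higher (6.94%), where 5.29% of all genes were called in each direction.

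On full counts, complement and Fc receptor genes moved in both directions. Of 15 tested against low-Malat1 Cr2-negative barcodes, 3 rose (Fcer2a, Fcgr2b and Clu) and 7 fell, among them the neonatal Fc receptor gene Fcgrt, the complement components C3 and C1ra and the C1 inhibitor gene Serping1. Among all genes 5.29% were called in each direction. Without the replicate block 3 of the 15 rose and 3 fell, and without the contaminant filter 2 rose and 1 fell. Of 13 endosome, lysosome and tetraspanin genes, Cd9, Cd81 and the protease gene Ctsd were higher and 0 lower, with 1 of 9 higher at equal depth, 0 higher without the replicate block, and 0 higher and 1 lower without the contaminant filter. B cell genes had 2 of 5 lower (Igkc and Ebf1) and plasma cell genes 2 of 3 lower (Jchain and Ighg1) against Cr2-negative barcodes. Without the replicate block 0 of 5 and 0 of 3 were lower, and without the contaminant filter 0 of 24 and 0 of 8. Ebf1 changed sign without that filter (log2 fold change 0.25), and Ighg1 with depth matching (0.66). Contractile genes had 1 higher and 1 lower of 8, and 5 lower when Cr2-positive meant at least 2 Cr2 UMIs. Cytokine receptor genes had 1 higher and 2 lower of 14.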
